A study of Mus musculus with 12 samples.

Results

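The 10 genes Abca1, Abcg1, Nr1h3, Nr1h2, Mylip, Pltp, Lpcat3, Arl4c, Smpdl3a and Soat1 were followed in 2 lymphoid tissues of mice. They serve cellular cholesterol efflux, sterol sensing by the liver X receptors (LXR) or cholesterol storage, or are listed as LXR targets. They were taken by symbol from the deposited count tables, and all 10 of 10 were found among the 23284 genes listed. Poly(A) RNA of spleen and of axillary lymph node was sequenced in 3 libraries for each tissue and genotype, 12 in all. DKO mice lack both apoE and apoA-I. DKO/hA-I mice lack the same proteins of their own and overexpress human apoA-I. Neither genotype is thus a wild type. All mice were 30 weeks old and ate normal laboratory diet, and no label names the promoter that drives the human gene. The comparisons ask how these genes differ in each tissue when apoA-I is absent, and how they differ between spleen and node within a genotype.

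LXRs are nuclear receptors that bind oxysterols, pair with a retinoid X receptor and sit on DNA at repeats of a short half-site. In macrophages, cells that take up cholesterol from lipoproteins and dead cells, their best known targets are the membrane transporters that hand cholesterol and phospholipid to apoA-I and to high density lipoprotein. Nr1h3 encodes LXR alpha, abundant in liver, fat and macrophages, and Nr1h2 encodes the widely expressed LXR beta. Abca1 encodes the transporter that loads lipid-poor apoA-I, and Abcg1 the transporter that passes cholesterol to mature particles. Pltp encodes the secreted phospholipid transfer protein, Mylip the ubiquitin ligase that marks lipoprotein receptors for breakdown, and Lpcat3 an enzyme that puts polyunsaturated chains into membrane phospholipids. Arl4c encodes a small GTPase of membrane traffic, Smpdl3a a secreted phosphodiesterase related to acid sphingomyelinase, and Soat1 the enzyme that esterifies cholesterol for storage in droplets, the step opposed to export.

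Library totals ran from 5911835 to 11950825 counts, and both extremes were DKO nodes (replicates 2 and 3). The members had at least 1635 counts summed over the 3 libraries of a group. The labels give each library an animal code of its own. All 3 DKO nodes share the middle number 75 of that code, while the DKO/hA-I nodes carry 76, 77 and 78, so in lymph node the genotype and whatever this number marks cannot be told apart. All spleens carry 55, 56 or 57, so the same holds for every comparison of spleen with node, the difference of genotype differences included. The mouse Apoa1 gene had 0 to 13 counts per library, and Apoe stood at 7.90 to 17.8 CPM (counts scaled to library size, with TMM factors of edgeR over all 12 libraries). Either gene is targeted in DKO and DKO/hA-I mice alike, so neither checks the labels. The pseudogene Rpl31-ps12, named here because it bears on the labels, summed to 5 counts over DKO spleens against 2162 over DKO/hA-I spleens, and to 2094 counts over DKO nodes against 3 over DKO/hA-I nodes. Its order is opposite in the 2 tissues, and directions below are those of the labels. The genotype directions of a tissue would turn if its genotype labels were exchanged, and each spleen would then be set against the other genotype's nodes. Markers followed the tissue labels: 6 of 6 spleen red pulp markers were higher in spleen than in node in either genotype, and 3 (DKO) and 4 (DKO/hA-I) of 5 lymph node markers were lower, with 1 of the 5 higher in DKO/hA-I spleens.

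**Figure D1:**
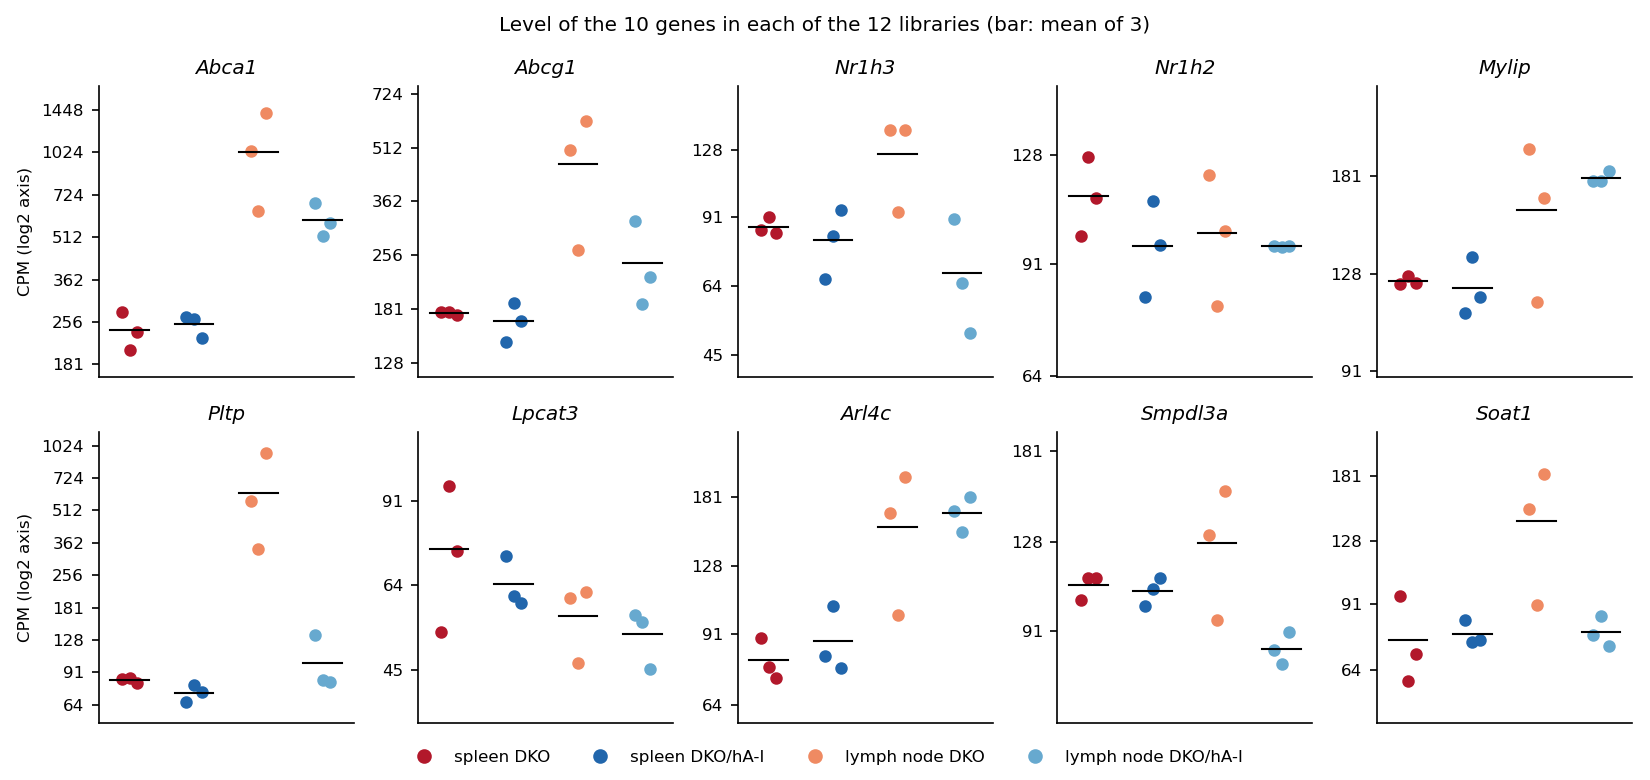
Level of each gene in every library (CPM, log2 axis, each panel with its own range), with points for libraries, a bar for the mean of 3, and the groups from left to right spleen DKO, spleen DKO/hA-I, lymph node DKO and lymph node DKO/hA-I. Pltp reaches 339.6 to 948 CPM in DKO nodes and lies at 65.7 to 134 CPM in the other 9 libraries.

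In lymph node, the gene that differed most between the genotypes was Pltp. It stood at 564, 339.6 and 948 CPM in DKO nodes, against 134, 83.3 and 81.6 CPM in DKO/hA-I nodes. Every DKO node lay above every DKO/hA-I node. The difference was 6.25-fold (log2 fold change 2.64 ± 0.39 SE, 3 libraries a group, edgeR quasi-likelihood test within the tissue, Benjamini-Hochberg adjusted p = 0.0152), and Pltp was the only 1 of the 10 genes called at an adjusted p under 0.05. Over all 14012 genes tested in node, 6.87% were called, 3.95% higher in DKO. Without DKO/hA-I replicate 2 the Pltp difference was 2.53 (adjusted p = 0.0755) and without DKO/hA-I replicate 3 it was 2.50 (adjusted p = 0.0544), so the call rests on these libraries, and over all 6 leave-outs the difference ran from 2.18 to 2.93.

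The transporters stood higher on average in DKO nodes, with wide spread. Abca1 had 1032, 634 and 1408 CPM in DKO nodes, against 677, 516 and 573 CPM in DKO/hA-I nodes. Abcg1 had 504, 265 and 608 CPM in DKO nodes, against 318, 187 and 223 CPM in DKO/hA-I nodes. In both genes DKO replicate 2 fell within the range of the DKO/hA-I nodes while the other DKO nodes lay above it. The differences were 0.81 ± 0.28 for Abca1 (1.76-fold, adjusted p = 0.121) and 0.93 ± 0.32 for Abcg1 (1.91-fold, adjusted p = 0.125), and neither passed the test.

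Of the receptor genes, Nr1h3 had 142, 93.5 and 142 CPM in DKO nodes, against 90.04, 65.1 and 50.3 CPM in DKO/hA-I nodes. The groups did not overlap, though DKO replicate 2 and DKO/hA-I replicate 1 nearly met, and the difference of 0.89 ± 0.24 missed the threshold (1.86-fold, adjusted p = 0.0714). Nr1h2 had 120.2, 79.8 and 101 CPM in DKO nodes, against 96.2, 95.9 and 96.0 CPM in DKO/hA-I nodes, a difference of 0.08 ± 0.16 (adjusted p = 0.81). DKO values of the LXR beta gene lay on both sides of the tightly spaced DKO/hA-I values.

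Soat1, the storage enzyme, had 152, 90.8 and 184 CPM in DKO nodes, against 77.0, 85.5 and 72.9 CPM in DKO/hA-I nodes. Smpdl3a had 132, 94.98 and 156 CPM in DKO nodes, against 84.7, 80.2 and 90.7 CPM in DKO/hA-I nodes. Neither gene's groups overlapped, and neither difference passed: 0.87 ± 0.24 for Soat1 (1.83-fold, adjusted p = 0.0738) and 0.59 ± 0.18 for Smpdl3a (1.51-fold, adjusted p = 0.095). The remaining members showed no consistent order. Mylip had 198, 116 and 168 CPM in DKO nodes, against 178, 178 and 184 CPM in DKO/hA-I nodes (-0.15 ± 0.19). Arl4c had 167, 100.5 and 199.7 CPM in DKO nodes, against 168, 151 and 181 CPM in DKO/hA-I nodes (-0.09 ± 0.24). Lpcat3 had 60.6, 46.2 and 62.1 CPM in DKO nodes, against 56.6, 54.9 and 45.1 CPM in DKO/hA-I nodes (0.13 ± 0.16). For these 3 genes the groups overlapped, with adjusted p of 0.676, 0.861 and 0.668.

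In all, the log2 fold change was above 0 for 8 of the 10 genes, with a median of 0.70 against 0.02 over all genes tested in node. In 4 genes (Nr1h3, Pltp, Smpdl3a and Soat1) all DKO nodes lay above all DKO/hA-I nodes, and 15.6% of all genes tested did so. The DKO replicate 2 node, which was also the least deeply sequenced library, had the lowest value of the 3 DKO nodes in all 10 genes. Without it, 6 of the 10 genes were called, all higher in DKO, where 15.7% of all genes were called and 10.9% were called higher. They were Soat1 (1.11, adjusted p = 0.00118), Smpdl3a (0.76, adjusted p = 0.00456), Abca1 (1.06, adjusted p = 0.00542), Abcg1 (1.21, adjusted p = 0.00985) and Nr1h3 (1.06, adjusted p = 0.0177) beside Pltp. DESeq2 on all 6 nodes called the same number, 6 of 10, where it called 14% of all genes and 8.49% as higher.

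**Figure D2:**
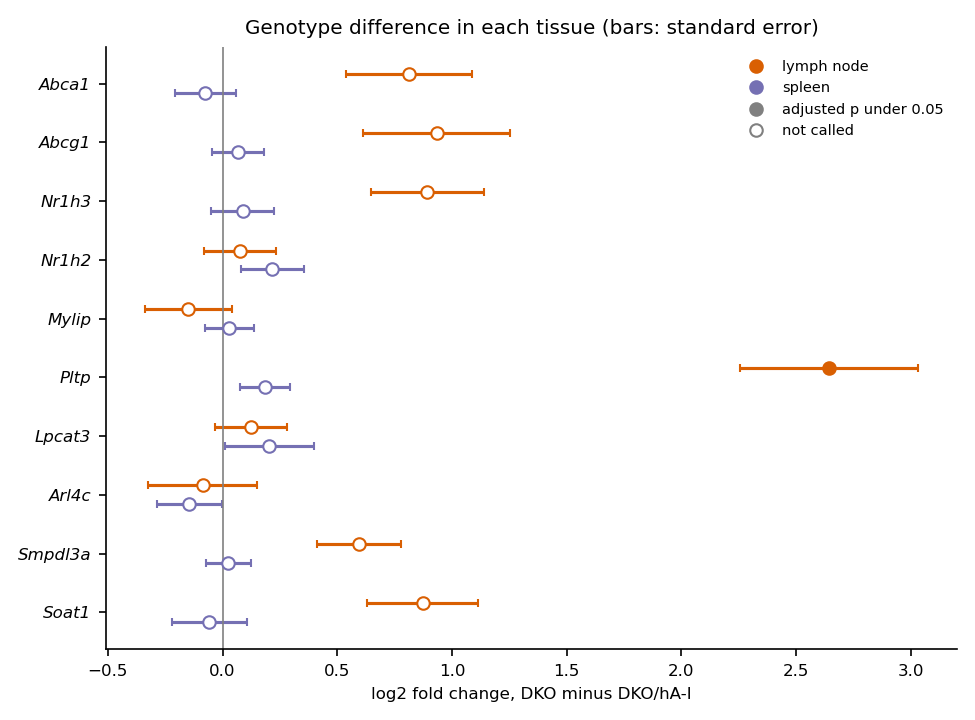
Log2 fold change between genotypes (DKO minus DKO/hA-I) of each gene in lymph node (orange) and spleen (purple), with bars for the standard error and filled points for an adjusted p under 0.05. The only filled point is Pltp in lymph node at 2.64, and the spleen values lie between -0.15 and 0.22.

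Markers of macrophages, lipid-laden ones included, moved the same way in these nodes. The summed level of 10 macrophage markers was 3115, 2082 and 4666 CPM in DKO nodes, against 1297, 1101 and 935.6 CPM in DKO/hA-I nodes, with 6 of 10 called higher (median log2 fold change 1.92). The sum of 10 markers of lipid-laden macrophages was 9038, 3375 and 11410 CPM in DKO nodes, against 2132, 1945 and 1552 CPM in DKO/hA-I nodes, with 8 of 10 called higher (median 2.29), and none of these 20 genes was at 0 in any group. In both lists DKO replicate 2 was the lowest DKO node and still above every DKO/hA-I node. Adipocyte markers ran the other way, with summed levels of 109.9, 161.3 and 141.3 CPM in DKO nodes and 1813, 2706 and 901 CPM in DKO/hA-I nodes, and 10 of 10 called lower. Among 8 markers of fibroblasts and reticular stroma 4 were called higher (summed 1482 to 2522 CPM in DKO and 1004 to 1101 CPM in DKO/hA-I nodes). Of the other lists, 1 of 8 T cell, 2 of 7 endothelial and 1 of 5 lymph node markers were called lower, and 0 of 7 B cell, 0 of 5 tested red pulp, 0 of 5 tested erythroid and 0 of 2 tested skeletal muscle markers were called. Whole tissue was sequenced, so more cells of a type and more RNA per cell cannot be told apart, and the part of these markers in the results for the 10 genes was not tested.

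**Figure D3:**
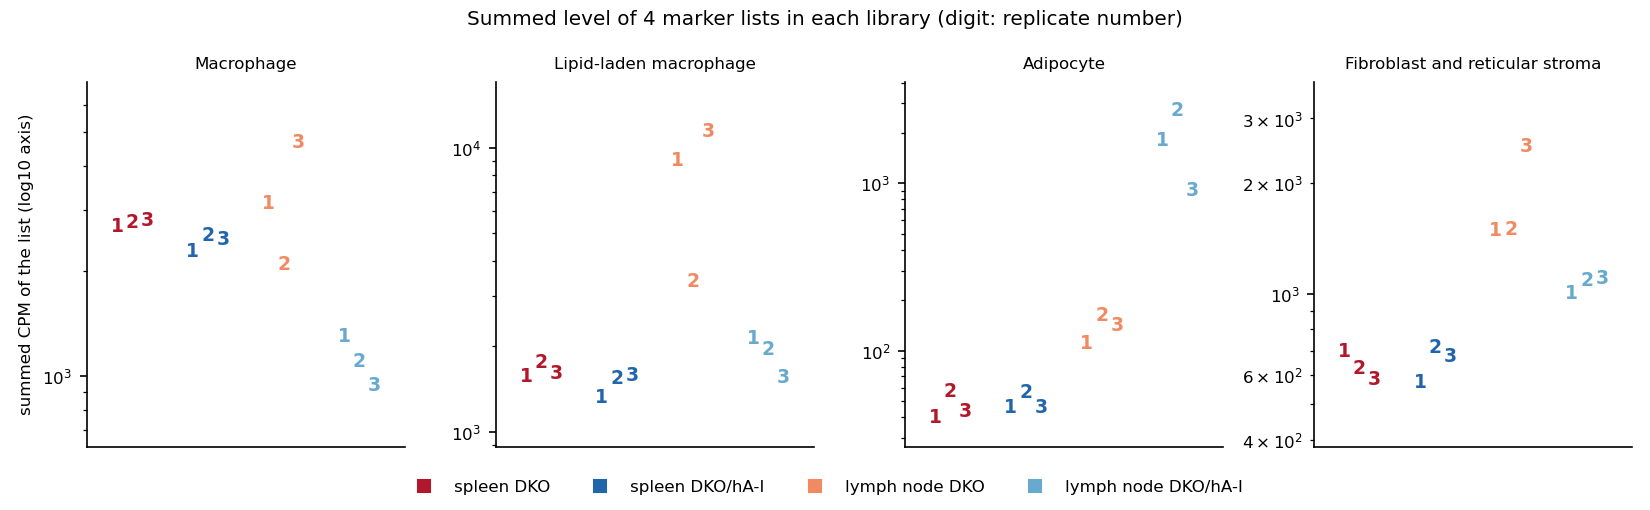
Summed CPM (log10 axis) of 4 marker lists in each library, with digits for replicate numbers and the groups from left to right spleen DKO, spleen DKO/hA-I, lymph node DKO and lymph node DKO/hA-I. In lymph node, lipid-laden macrophage markers reach 3375 to 11410 CPM in DKO, above 1552 to 2132 CPM in DKO/hA-I, and adipocyte markers stand at 109.9 to 161.3 CPM in DKO, below 901 to 2706 CPM in DKO/hA-I.

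In spleen, no member was called between the genotypes. edgeR called 0 of the 10 genes and 1 of 14009 genes in all (0.00714%), the pseudogene Rpl31-ps12, while 617 genes had an unadjusted p under 0.05, none of them a member. DESeq2 called 5 genes and limma voom 1. The largest member difference was that of Nr1h2, with 99.2, 127 and 112 CPM in DKO spleens, against 81.8, 111 and 96.5 CPM in DKO/hA-I spleens (0.22 ± 0.14, adjusted p = 0.929). Here too the ranges overlapped. Abca1 had 278, 204 and 235 CPM in DKO spleens, against 267, 261 and 224 CPM in DKO/hA-I spleens (-0.08 ± 0.13), and Abcg1 177, 178 and 174 CPM in DKO spleens, against 146, 189 and 168 CPM in DKO/hA-I spleens (0.07 ± 0.11). The ranges of the genotypes overlapped for both transporters.

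Pltp was the only member whose spleens did not overlap, with 84.4, 84.7 and 80.2 CPM in DKO spleens, against 65.7, 79.1 and 73.3 CPM in DKO/hA-I spleens (0.19 ± 0.11, adjusted p = 0.929). Of all genes tested, 5.08% had DKO above DKO/hA-I without overlap. The differences of the other members were 0.20 ± 0.19 for Lpcat3, 0.09 ± 0.14 for Nr1h3, 0.03 ± 0.11 for Mylip, 0.03 ± 0.10 for Smpdl3a, -0.06 ± 0.16 for Soat1 and -0.15 ± 0.14 for Arl4c. The median of the 10 was 0.05, against 0.01 over all genes. In spleen 0 of the tested markers of any list was called (3 of 10 adipocyte markers passed the count filter there), and macrophage markers summed to 2677 to 2785 CPM in DKO and 2281 to 2524 CPM in DKO/hA-I spleens. With the middle number of the animal code as a block, 515 genes (3.68%) were called and still 0 members. Within code 55, which has 1 library of each genotype, the log2 difference was 0.29 for Pltp and -0.18 for Abca1, and within code 57, with 1 DKO and 2 DKO/hA-I libraries, it was 0.15 and -0.24.

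Whether the genotype difference itself differed between the tissues was tested in a fit of all 12 libraries, as the difference in node minus that in spleen. Pltp passed, at 2.44 ± 0.42 (adjusted p = 0.0095), and in each of the 12 leave-outs it stayed under the threshold (2.00 to 2.73, highest adjusted p = 0.0411). Of all 14608 genes 3.33% passed, 2.04% with a value above 0 as Pltp had. The other members above 0.5 were Abca1 at 0.87 ± 0.33 (adjusted p = 0.182), Soat1 at 0.91 ± 0.31 (adjusted p = 0.145), Abcg1 at 0.85 ± 0.36 (adjusted p = 0.25), Nr1h3 at 0.78 ± 0.30 (adjusted p = 0.191) and Smpdl3a at 0.55 ± 0.21 (adjusted p = 0.192). Without node DKO replicate 2 all 5 of these passed as well, giving 6 of 10, where 7.82% of all genes passed. Nr1h2, Mylip, Lpcat3 and Arl4c lay between -0.20 and 0.04 and did not pass.

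Between the tissues, Abca1 was the most clearly node-weighted of the transporters. In DKO mice it was 4.29-fold lower in spleen than in node (log2 fold change -2.10 ± 0.24, adjusted p = 3.76e-05), and in DKO/hA-I mice 2.35-fold lower (-1.23 ± 0.23, adjusted p = 0.00166). Spleens and nodes did not overlap in either genotype. Abcg1 was 2.60-fold lower in DKO spleens than in DKO nodes (-1.38 ± 0.26, adjusted p = 0.00179), and in DKO/hA-I mice, where the tissues overlapped, its difference was -0.54 ± 0.26 (adjusted p = 0.153).

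Pltp was 7.43-fold lower in DKO spleens than in DKO nodes (-2.89 ± 0.31, adjusted p = 2.32e-05). In DKO/hA-I mice all spleens lay below all nodes too, by -0.46 ± 0.29 (adjusted p = 0.299). Arl4c, which was not called between genotypes in either tissue, was lower in spleen in both, by -0.96 ± 0.21 in DKO mice (adjusted p = 0.00466) and -0.92 ± 0.21 in DKO/hA-I mice (adjusted p = 0.0053), without overlap. Soat1 was lower in DKO spleens (-0.93 ± 0.22, adjusted p = 0.00886), although DKO spleen replicate 1 (95.4 CPM) lay above DKO node replicate 2 (90.8 CPM). In DKO/hA-I mice it stood at 83.7, 74.5 and 75.2 CPM in spleen, against 77.0, 85.5 and 72.9 CPM in node (-0.01 ± 0.22).

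Mylip had 124, 127 and 124 CPM in DKO spleens, against 198, 116 and 168 CPM in DKO nodes (-0.36 ± 0.16, adjusted p = 0.123). In DKO/hA-I mice it had 112, 136 and 118 CPM in spleens, against 178, 178 and 184 CPM in nodes, and was called lower in spleen (-0.56 ± 0.16, adjusted p = 0.0191). That call was lost without node DKO/hA-I replicate 3 (-0.55, adjusted p = 0.0516), spleen DKO/hA-I replicate 1 (-0.50, adjusted p = 0.0805) or spleen DKO/hA-I replicate 3 (-0.55, adjusted p = 0.0611). Nr1h3 was at -0.54 ± 0.21 in DKO mice (adjusted p = 0.0856) and 0.24 ± 0.21 in DKO/hA-I mice. Nr1h2 was at 0.16 ± 0.16 and 0.00 ± 0.16, with overlap in both genotypes, and it passed the test in no comparison.

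Lpcat3 had 52.7, 96.9 and 73.6 CPM in DKO spleens, against 60.6, 46.2 and 62.1 CPM in DKO nodes (0.40 ± 0.20, adjusted p = 0.174) and was, with Nr1h2, on the spleen side of 0. In DKO/hA-I mice its spleens (72.3, 61.1 and 59.3 CPM) lay above its nodes (56.6, 54.9 and 45.1 CPM) without passing the test (0.30 ± 0.20, adjusted p = 0.311). Smpdl3a likewise lay higher in DKO/hA-I spleens (100.1, 107 and 111 CPM) than in DKO/hA-I nodes (84.7, 80.2 and 90.7 CPM; 0.32 ± 0.15, adjusted p = 0.145). In DKO mice the tissues overlapped for Smpdl3a (-0.23 ± 0.15, adjusted p = 0.3).

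In DKO mice 5 of the 10 genes were called lower in spleen and 0 higher, where 22.8% of all genes were called and 11.3% were called lower. In DKO/hA-I mice 3 were called lower and 0 higher, where 25.7% were called and 11.8% were called lower. The median log2 difference of the 10 was -0.73 in DKO and -0.23 in DKO/hA-I mice, against -0.01 over all genes in either. Without node DKO replicate 2 the counts were 8 in DKO mice, all lower (29.8% of all genes called), and 5 in DKO/hA-I mice, 4 lower and Smpdl3a higher (31.2% called), the spread being shared in this fit. Without spleen DKO replicate 1, 5 were lower in DKO mice and 1 higher, Lpcat3 (0.62, adjusted p = 0.0175), where 23% of all genes were called. With the DKO/hA-I libraries alone, 3 were lower and Smpdl3a higher (0.32, adjusted p = 0.0312), where 31.8% of all genes were called. Lipid-laden macrophage markers moved in the same direction, with 9 of 10 called lower in DKO and 4 of 10 in DKO/hA-I spleens than in nodes. Of the macrophage markers, 5 of 10 were lower and 2 higher in DKO spleens (median -0.60), and 7 of 10 were higher and 0 lower in DKO/hA-I spleens (median 1.05). Adipocyte markers were lower in spleen, 4 of 10 in DKO and 10 of 10 in DKO/hA-I mice, with Cidea at 0 counts in DKO and Lep at 0 in DKO/hA-I spleens. Erythroid markers were higher in spleen, 8 of 8 in DKO and 7 of 8 in DKO/hA-I mice. T cell markers were lower in 5 and 8 of 8, and stromal markers in 5 and 3 of 8, with 1 higher in DKO/hA-I spleens. Endothelial markers were lower in 5 of 7 in DKO (median -0.72) and 6 of 7 in DKO/hA-I spleens (median -0.94), with 1 higher in the DKO/hA-I mice. The part of these cell types in the tissue differences was not tested.

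**Figure D4:**
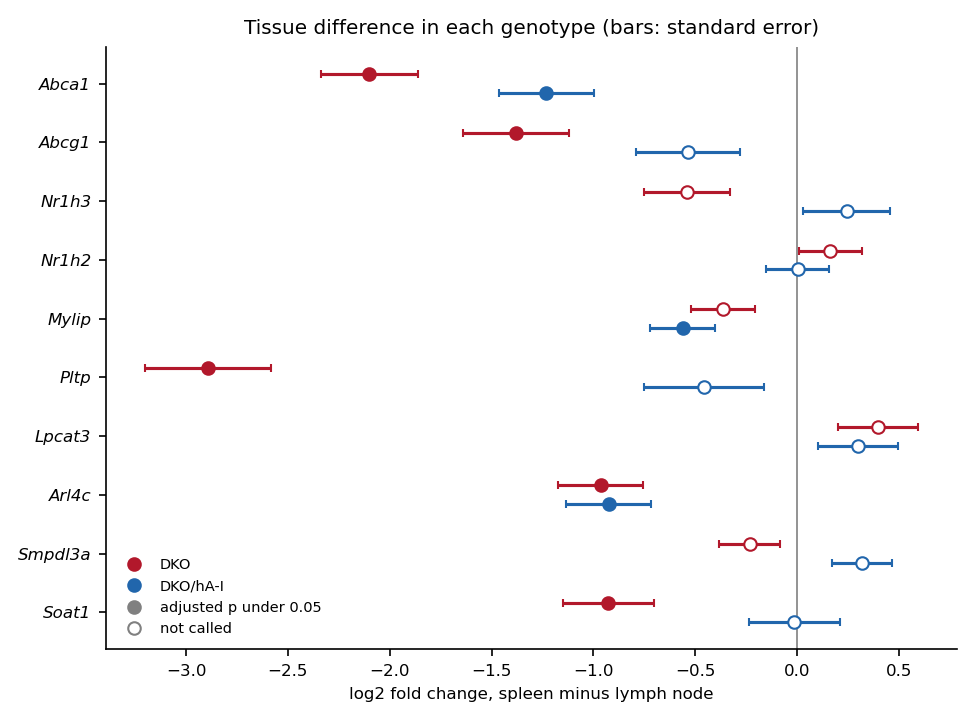
Log2 fold change between tissues (spleen minus lymph node) of each gene in DKO (red) and DKO/hA-I (blue) mice, with bars for the standard error and filled points for an adjusted p under 0.05. Abca1 and Arl4c are filled in both genotypes, at -2.10 and -1.23 and at -0.96 and -0.92, while Nr1h2 lies at 0.16 and 0.00.

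Levels were compared between genes only per kilobase of exon (CPM per kb, using the union of exons in GENCODE vM21). In spleen, by that length, Smpdl3a had the highest mean in both genotypes (52.6 ± 2.49 CPM per kb in DKO and 51.4 ± 2.77 in DKO/hA-I, SD, n = 3 each) and Soat1 the lowest (7.67 ± 1.86 and 7.95 ± 0.52). Mylip came next after Smpdl3a, at 38.7 ± 0.58 CPM per kb in DKO and 37.7 ± 3.87 in DKO/hA-I spleens. In spleen the transporter genes stood low in the order, Abca1 at 23.1 ± 3.57 and 24.2 ± 2.25 and Abcg1 at 24.2 ± 0.26 and 22.9 ± 2.9 CPM per kb. Their ranges met each other and that of Lpcat3 (22.8 ± 6.76 and 19.7 ± 2.16) in both genotypes. Nr1h3 (34.5 ± 1.49 and 32.2 ± 5.56), Nr1h2 (33.6 ± 4.14 and 28.7 ± 4.29) and Pltp (32.4 ± 0.98 and 28.4 ± 2.63) lay between, the ranges of Nr1h3 and Pltp apart in DKO spleens and each meeting that of Nr1h2, and Arl4c stood at 14.6 ± 1.53 and 16.0 ± 2.75.

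In node the order differed by genotype. In DKO nodes Pltp came first at 241 ± 120 CPM per kb, followed by Abca1 at 98.9 ± 37.4, Abcg1 at 62.9 ± 24.1, Smpdl3a at 61.7 ± 14.8, Nr1h3 at 50.1 ± 11.2 and Mylip at 49.7 ± 12.9. The ranges of neighbours among these 6 genes met, those of Pltp and Abca1 only between 133 and 136 CPM per kb. In DKO/hA-I nodes Abca1 (56.8 ± 7.84) and Mylip (55.6 ± 1.19) led, then came Smpdl3a (41.2 ± 2.54), Pltp (38.9 ± 11.7) and Abcg1 (33.3 ± 9.31). Soat1 was last there as well, at 14.5 ± 4.83 CPM per kb in DKO and 8.02 ± 0.66 in DKO/hA-I nodes. With the longest transcript in place of the exon union, Nr1h2 moved from rank 7 to 3 in DKO/hA-I nodes and from 4 to 1 in DKO spleens, and Mylip came before Abca1 in DKO/hA-I nodes, so the order depends on the length used at its top as well.

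The first 250 bases before the start annotated in RefSeq are shown for Abca1 and Pltp, the members with the largest tissue differences in DKO mice. They come from RefSeq (GRCm38.p6), which gives windows of 250 bases before to 50 after the start for 8 of the 10 genes; Abcg1 and Smpdl3a are named only. Both genes lie on the minus strand, Abca1 (ENSMUSG00000015243.4, chromosome 4, 53030787 to 53159895) and Pltp (ENSMUSG00000017754.13, chromosome 2, 164839518 to 164857711), and the stretches are written 5′ to 3′ along the gene, at chr4:53159896-53160145 and chr2:164857709-164857958. Capitals mark the best match to the LXR repeat (AGGTCA, 4 bases of any kind, AGGTCA) on either strand with at most 3 of its 12 fixed bases differing.
Abca1: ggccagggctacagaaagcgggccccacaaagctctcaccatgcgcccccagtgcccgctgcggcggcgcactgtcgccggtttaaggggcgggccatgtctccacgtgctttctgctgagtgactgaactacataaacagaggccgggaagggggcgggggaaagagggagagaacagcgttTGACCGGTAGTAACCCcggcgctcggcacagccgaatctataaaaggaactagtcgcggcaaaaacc
Pltp: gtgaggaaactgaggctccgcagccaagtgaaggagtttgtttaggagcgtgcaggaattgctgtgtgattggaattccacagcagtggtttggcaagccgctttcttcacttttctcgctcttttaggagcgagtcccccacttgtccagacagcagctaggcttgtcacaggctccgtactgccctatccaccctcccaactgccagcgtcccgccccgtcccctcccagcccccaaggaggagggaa
The Abca1 match, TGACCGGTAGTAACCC, lies on the strand opposite to the gene, 67 to 52 bases before the start, with 3 differences. Arl4c has a match with 3 differences too, Pltp has none (its best has 5), and the other windows (Nr1h3, Nr1h2, Mylip, Lpcat3 and Soat1) have none. Of all 32851 promoter windows 21.9% hold a match with at most 3 differences. The E-box CACGTG, which reads the same on both strands, lies 147 bases before the Abca1 start and in no other member's window, and 7.15% of all windows hold it. These letters describe the windows only, and sequence outside the windows was not searched for sites. The last bases of the Pltp stretch fall inside the GENCODE span given for that gene.

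The genes whose profile over the 12 libraries was most like a member's were found by the root mean square difference of centred log2 CPM, among 14269 genes. For Abca1 they were Gas7 (0.19), Clec14a (0.24) and Myo16 (0.25), against a median of 0.93 over all genes. Myo16 had few counts in spleen, 28 summed over DKO and 47 over DKO/hA-I spleens. The 0.5 CPM added before the log2 thus bears on its value. Gas7 had 130 ± 52.2 CPM in DKO and 71.1 ± 2.35 in DKO/hA-I nodes, and 31.6 ± 5.09 CPM in DKO and 32.9 ± 3.97 in DKO/hA-I spleens. For Abcg1 they were Npc2 (0.14), which encodes a lysosomal cholesterol-binding protein, Anxa3 (0.14) and Vim (0.17), the intermediate filament gene, against a median of 0.68. Npc2 had 709 ± 248 CPM in DKO and 409 ± 35.5 in DKO/hA-I nodes, and 288 ± 8.49 CPM in DKO and 285 ± 10.6 in DKO/hA-I spleens. For Nr1h3 they were Camk1 (0.13), Itgb2 (0.15), the integrin chain shared by leukocyte integrins, and Sfpi1 (0.15), the gene of the myeloid and B cell factor PU.1, against a median of 0.50. Within the 10 genes the closest profiles were those of Nr1h2 with Lpcat3 and of Nr1h2 with Smpdl3a (0.24 each). The libraries differ in tissue and cell content, and likeness is given as a description.

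Other LXR targets split in node. Of 26 listed genes 20 were tested, and 5 were called higher and 4 lower in DKO. Higher were Mertk, a receptor for dying cells (139 ± 41.8 CPM in DKO and 44.9 ± 9.56 in DKO/hA-I nodes, 1.65 ± 0.25, adjusted p = 0.0162), the apolipoprotein genes Apoc1 (1.79 ± 0.30) and Apoc4 (3.45 ± 0.56, at 3.17 ± 1.65 CPM in DKO and 0.287 ± 0.155 CPM in DKO/hA-I nodes, where counts were few), the interleukin 1 antagonist gene Il1rn (2.24 ± 0.46) and Aebp1 (1.32 ± 0.28). Lower were the lipogenic genes Scd1, the stearoyl-CoA desaturase (823 ± 52.3 CPM in DKO and 7370 ± 2926 in DKO/hA-I nodes, -3.15 ± 0.32, adjusted p = 0.00742), the fatty acid synthase gene Fasn (-4.14 ± 0.54), the acetyl-CoA carboxylase gene Acaca (-3.19 ± 0.44) and Mlxipl, which encodes the carbohydrate-sensing factor ChREBP (-4.996 ± 0.77). Fat cells also express these 4 genes, and the adipocyte markers above were lower in the same nodes. The part of fat cells in these 4 values was not tested. The list's median was 0.12, against 0.02 over all genes.

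Of 17 nuclear receptor partners and coregulators, 1 was called in node: Ppara, a fatty acid sensor, at 1.1 ± 0.57 CPM in DKO and 28.4 ± 10.4 in DKO/hA-I nodes (-4.74 ± 0.47, adjusted p = 0.00729). Of 20 tested cholesterol handling genes, the lipoprotein receptor gene Lrp1 (2.29 ± 0.46) and the lysosomal acid lipase gene Lipa (456 ± 234 CPM in DKO and 127 ± 11.2 in DKO/hA-I nodes, 1.85 ± 0.38, adjusted p = 0.0336) were higher. The receptor gene Vldlr was lower (14.2 ± 1.56 CPM in DKO and 35.2 ± 13.1 in DKO/hA-I nodes, -1.30 ± 0.29, adjusted p = 0.0399). Among relatives of members, Lpcat2 was higher (0.87 ± 0.21, adjusted p = 0.0486; 1 of 6) and Arl4a lower (-1.18 ± 0.16, adjusted p = 0.0125; 1 of 2). Of the 14 node calls that were refitted without each library (all those named here but Aebp1), only Scd1 and Ppara kept theirs throughout. Dropping a DKO node ended 6 (replicate 1), 2 (replicate 2) or 11 (replicate 3) of these calls, and dropping a DKO/hA-I node ended 8 (replicate 1), 10 (replicate 2) or 6 (replicate 3), with no change of direction. In spleen 0 genes of these 5 lists were called by genotype.

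**Figure D5:**
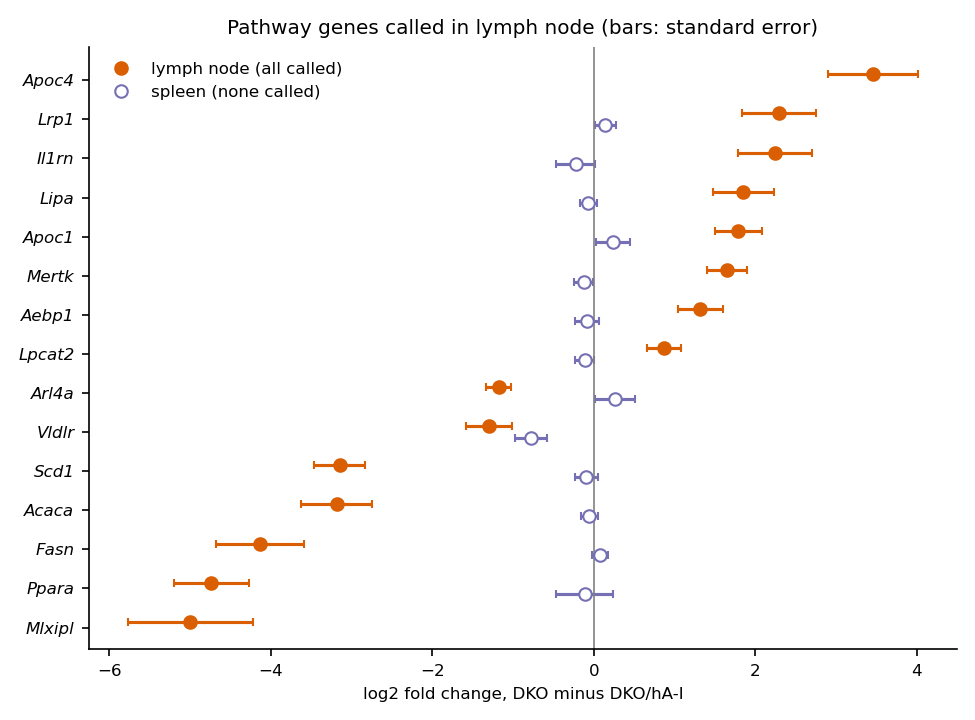
Log2 fold change (DKO minus DKO/hA-I) of the 15 listed pathway genes called in lymph node (orange, filled), with the spleen value in purple (open, none called, and no spleen value for Apoc4 and Mlxipl, which did not pass the count filter there), and bars for the standard error. Node values run from 3.45 for Apoc4 to -4.996 for Mlxipl, while spleen values stay within 1 of 0.

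Between tissues, 4 other LXR targets were higher and 7 lower in DKO spleens than in DKO nodes, of 22 tested, and 5 higher and 8 lower in DKO/hA-I mice. Over all genes, 22.8% were called in DKO and 25.7% in DKO/hA-I mice. The cyclooxygenase gene Ptgs1 had 96.7 ± 9.25 CPM in DKO spleens and 20.4 ± 3.66 in DKO nodes (2.25 ± 0.16, adjusted p = 9e-07), and 93.4 ± 5.96 CPM in DKO/hA-I spleens and 18.4 ± 3.14 in DKO/hA-I nodes (2.34 ± 0.16, adjusted p = 5.57e-07). Abcg4, a relative of Abcg1, had 34.2 ± 20 CPM in DKO spleens and 0.12 ± 0.05 in DKO nodes, and 23.7 ± 6.67 CPM in DKO/hA-I spleens and 0.29 ± 0.18 in DKO/hA-I nodes. It thus ran against Abcg1 in direction. Its node counts were few, with 3 summed over DKO nodes and 9 over DKO/hA-I nodes. Lpl, the lipoprotein lipase gene, was lower in spleen in both genotypes, with 67.8 ± 10.2 CPM in DKO spleens and 1344 ± 978 in DKO nodes (-4.31 ± 0.49), and 76.1 ± 2.63 CPM in DKO/hA-I spleens and 413 ± 165 in DKO/hA-I nodes (-2.44 ± 0.45). It also stands in the list of lipid-laden macrophage markers.

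Of 20 cholesterol handling genes, 3 were higher and 6 lower in DKO spleens than in DKO nodes, and 4 higher and 3 lower in DKO/hA-I mice. The share called over all genes was 22.8% in DKO and 25.7% in DKO/hA-I mice. Soat2, the second cholesterol esterification gene, was higher in spleen in both (11.3 ± 3.23 CPM in DKO spleens and 4.17 ± 1.08 in DKO nodes, 1.47 ± 0.25; 10.1 ± 1.46 CPM in DKO/hA-I spleens and 4.4 ± 0.61 in DKO/hA-I nodes, 1.20 ± 0.25), as was Scarb1, the high density lipoprotein receptor gene (0.45 ± 0.11 and 0.32 ± 0.11). Vldlr was lower in spleen in both genotypes (-2.10 ± 0.27 in DKO and -2.64 ± 0.25 in DKO/hA-I mice). Npc2 was lower in DKO spleens (-1.30 ± 0.21, adjusted p = 0.000493), as were Nceh1, which encodes a cholesteryl ester hydrolase (-0.95 ± 0.16), and the caveolin gene Cav1 (-1.18 ± 0.26). Of the 17 partners and coregulators, Rxra (0.48 ± 0.13) and Nrip1 (0.58 ± 0.19) were higher in DKO spleens, and Ppara, Rxrg and Ppard lower in DKO/hA-I spleens. The call of Rxra was lost without spleen DKO replicate 3 (adjusted p = 0.0638), that of Nrip1 in 8 of the 12 leave-outs (highest adjusted p = 0.142), and those of Scarb1 and Ppard in DKO/hA-I mice in 6 each (highest adjusted p = 0.148 for Scarb1).

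The authors' deposited table, which compares genotypes within a tissue, called 1 of the 10 genes in node, Pltp (log2 ratio 2.58 as DKO over DKO/hA-I, q = 0.00232), and 0 in spleen. The next in the authors' deposited table were Soat1 (0.91, q = 0.0591) and Abcg1 (0.89, q = 0.137) in node. Its header does not say which genotype is on top, and the direction was read from the correlation with the edgeR fold changes across genes (r = -0.993 in node, where the deposited sign was turned, and 0.945 in spleen). Against the labels the deposited ratios thus ran opposite ways in spleen and node, as Rpl31-ps12 did. Whether this comes from the order of genotypes in the ratio or from exchanged labels was not tested. The node directions printed here follow from the turned sign and are no separate check of the labels.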

How the data were processed

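Poly(A) RNA of spleen and axillary lymph node was sequenced on an Illumina Genome Analyzer IIx, 3 libraries per tissue and genotype, per the labels. The raw counts per gene used for every value and test are those the authors deposited, 1 table per tissue with 23284 genes. The authors also deposited log2 ratios with p-values and q-values per tissue, from which the authors' calls were copied, and 4 columns of group values that could not be tied to a group and were not used. Trimmomatic, TopHat, Bowtie and Cuffdiff and the builds GRCm38 and mm10 are named without versions or roles in the submitters' processing notes; no source used here gives the counting program or its use of strand, so overlapping genes may share counts.

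Groups came from the labels. CPM were computed on the TMM scale of all 12 libraries. Genes were filtered (minimum count 10, minimum total 15) and tested with edgeR 4.0.16 (R 4.3.3; quasi-likelihood test, Benjamini-Hochberg adjustment over all genes tested, threshold 0.05), within a tissue for genotype and in a fit of all 12 libraries for tissue and for the difference of genotype differences, and the tests were tried on simulated data. Tissue comparisons and that difference share libraries. Each standard error of an edgeR log2 fold change was worked back from the F statistic of the test. It is the absolute log2 fold change over the square root of F, not a separate estimate. Nothing in the labels says that libraries of a group are separate cultures or pools, only that each has its own animal code, and with 3 libraries a group p-values reflect how far these libraries differ among themselves. Alternatives were RLE size factors, library totals alone, no count filter, DESeq2 1.42.0, limma 3.58.1 (voom), the replicate number or the animal code as a block, the libraries of 1 genotype only, each library left out, and transcript length. No replicate pair was a copy of another. The floor of 3 counts was 0.265 to 0.506 CPM in node, and it covers counting error only.

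The 10 genes, the 5 pathway lists and the 11 marker lists were chosen with earlier results of these data known. A gene of a pathway list is not reported here and was left out of that list's counts. From each pathway list up to 4 called genes per direction and comparison were named by adjusted p, and for Abca1, Abcg1 and Nr1h3 the 3 genes nearest in profile (log2 of CPM + 0.5). Aebp1 in the node genotype comparison and Rpl31-ps12 fall outside that rule and were named after their values were seen. Gene coordinates and lengths are from GENCODE vM21 (GRCm38).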

Additional observations from a re-analysis of the deposited data

Results flagged for a closer look

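For 12 named genes the genotype difference (DKO minus DKO/hA-I) in lymph node differed from that in spleen, tested in a fit of all 12 libraries with edgeR at an adjusted p under 0.05. Of the 10 genes described above only Pltp is among them, with a difference of 2.437 on the log2 scale. Other genes with the larger value in node were Il1rn (2.442), Lrp1 (2.126), Lipa (1.901), Mertk (1.758), Apoc1 (1.537) and Aebp1 (1.384). Genes with the lower value in node were Ppara (-4.647), Fasn (-4.238), Acaca (-3.153), Scd1 (-3.078) and Arl4a (-1.456). Of the 11 genes other than Pltp, 5 (Mertk, Scd1, Fasn, Acaca and Ppara) kept the call without each of the 12 libraries. With limma voom 6 of the 11 were lost (Il1rn, Aebp1, Apoc1, Lipa, Lrp1 and Arl4a), and with the replicate block 5 (these but Lipa). Macrophage and adipocyte markers differed in the same nodes, and their part in these values was not tested.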

How the results depend on the processing

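With 3 libraries a group, the counts of calls moved widely with single libraries. In spleen, genotype calls numbered 1 in all, 515 with the animal code as a block, 5 with DESeq2, and 1 to 167 without a library. In node they numbered 962, 1967 with DESeq2, 438 with the replicate block and 115 to 2245 without a library, and calls among the 10 genes numbered 1, 6 with DESeq2 and 0 to 6 without a library. Spleen minus node calls numbered 3325 in DKO mice (2204 with that genotype's libraries alone, 2391 to 4427 without a library, 5 to 8 of the 10 genes) and 3760 in DKO/hA-I mice (2898 to 4624 without a library, 2 to 5 of the 10 genes). For the difference of genotype differences they numbered 487, 973 with DESeq2, 253 with limma voom, 299 with the replicate block and 179 to 1160 without a library, with 1 to 6 of the 10 genes. With that genotype's libraries alone the DKO tissue call of Soat1 was lost (-0.90, adjusted p = 0.0624).

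Replicate numbers did not pair the samples: same-numbered libraries correlated at -0.141 to 0.108 in their deviations from the group means. The replicate block changed no call among the 10 genes, and ended 4 of 14 node calls of pathway genes (Apoc1, Lrp1, Lipa and Vldlr) and 5 of 11 for the difference of differences. The animal code block could not be fitted in node.

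Direction turned only where a gene was not called. With library totals alone, the spleen genotype difference was -0.031 for Mylip and -0.037 for Smpdl3a, the node difference -0.001 for Nr1h2, and the DKO/hA-I tissue difference 0.004 for Soat1. That of Nr1h2 was -0.004 with RLE factors, -0.004 with DESeq2 and -0.008 with voom, and the difference of differences of Arl4c was -0.016 with voom. Leaving out libraries, spleen genotype differences ran from -0.208 to 0.039 for Abca1, -0.014 to 0.165 for Abcg1, -0.030 to 0.204 for Nr1h3, -0.023 to 0.118 for Mylip, -0.015 to 0.389 for Lpcat3, -0.243 to 0.006 for Arl4c, -0.009 to 0.056 for Smpdl3a and -0.278 to 0.091 for Soat1. Node differences ran from -0.103 to 0.212 for Nr1h2, -0.359 to 0.036 for Mylip and -0.322 to 0.144 for Arl4c. DKO/hA-I tissue differences ran from -0.117 to 0.110 for Nr1h2 and -0.069 to 0.042 for Soat1, and differences of differences from -0.312 to 0.138 for Lpcat3 and -0.168 to 0.267 for Arl4c. The cause was not tested.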

Other observations

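Ratios of length-scaled levels were taken within each library. Pltp over Abca1 was 2.37 ± 0.31 in DKO and 0.677 ± 0.115 in DKO/hA-I nodes (SD, n = 3 each), and 1.43 ± 0.23 in DKO and 1.18 ± 0.17 in DKO/hA-I spleens. Nr1h3 over Nr1h2 was 1.67 ± 0.18 in DKO and 0.951 ± 0.278 in DKO/hA-I nodes, without overlap, and 1.03 ± 0.10 in DKO and 1.13 ± 0.16 in DKO/hA-I spleens. Soat1 over Abca1, the storage enzyme gene over the exporter gene, was close in the genotypes of a tissue: 0.149 ± 0.0093 in DKO and 0.144 ± 0.0284 in DKO/hA-I nodes, and 0.330 ± 0.0293 in DKO and 0.330 ± 0.0267 in DKO/hA-I spleens. These ratios were not tested.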
